A study of Mus musculus with 16 samples.

Results

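Genes of the pyruvate dehydrogenase switch were followed in the left ventricles of male mice, namely the kinases Pdk1, Pdk2, Pdk3 and Pdk4 and the phosphatase Pdp1. They were chosen by name, with earlier results of these data known, and are 5 of 16593 genes with a symbol on the array. Each was measured by 1 probe, and all 5 were among the 8831 genes that passed the filter on detection. RNA of 16 mice, 1 mouse per Illumina MouseRef-8 array, had been taken at 12 weeks of age from 4 groups of 4 males, as C57BL/6J and C57.YA mice were each either sham-operated or castrated (CX). C57.YA is the consomic strain C57BL/6J-chrY<A>, in which chrY comes from A/J mice on an otherwise C57BL/6J background, and surgery preceded puberty, so that CX mice lacked post-pubertal testosterone. The samples are whole ventricular tissue, in which fewer cells of a type and less RNA per cell cannot be told apart.

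The pyruvate dehydrogenase complex turns pyruvate from glycolysis into acetyl-CoA inside mitochondria, and so sets how much glucose the heart muscle burns in place of fatty acids. The kinases of the PDK family phosphorylate the complex and switch it off, whereas the phosphatases encoded by Pdp1 and Pdp2 remove the phosphate and switch it on again. Pdk4 is the family member best known for its induction in the heart by fasting, fatty acids, glucocorticoids and diabetes, through PPAR, glucocorticoid and FoxO transcription factors, while Pdk2 is broadly expressed, Pdk1 is known as a target of hypoxia signaling and Pdk3 is a minor isoform in heart.

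RefSeq promoter windows on GRCm38.p6, which hold the 250 bases before a transcription start, were found for 4 of the 5 genes (Pdk1, Pdk2, Pdk3 and Pdk4). Those of Pdk4 and Pdk2 are shown because these were the kinases with the largest rise and with a fall after castration. The window of Pdk4 is chr6:5496279-5496528 on the minus strand, upstream of the gene at chr6:5483351-5496278, and that of Pdk2 is chr11:95041372-95041621 on the minus strand, upstream of the gene at chr11:95026258-95041371. Capitals mark the matches to any of 5 motifs searched on both strands, which do not overlap in these windows.
Pdk4: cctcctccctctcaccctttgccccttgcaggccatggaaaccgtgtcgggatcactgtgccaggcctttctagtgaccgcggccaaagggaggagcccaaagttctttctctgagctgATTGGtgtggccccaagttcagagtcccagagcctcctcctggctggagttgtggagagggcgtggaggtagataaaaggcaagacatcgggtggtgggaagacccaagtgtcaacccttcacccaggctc
Pdk2: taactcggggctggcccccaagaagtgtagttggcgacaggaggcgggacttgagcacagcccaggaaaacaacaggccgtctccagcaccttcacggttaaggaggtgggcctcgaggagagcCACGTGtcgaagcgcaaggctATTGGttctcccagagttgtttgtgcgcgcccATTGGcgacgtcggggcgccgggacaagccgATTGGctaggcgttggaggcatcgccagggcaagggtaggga
The capitals in the window of Pdk4 are 1 CCAAT box, which lies there on the opposite strand and so reads ATTGG. The window shown for Pdk2 has 3 CCAAT boxes and 1 E-box (CACGTG). Among the 32851 mouse windows of this length, 33.8% hold a CCAAT box and 6.02% hold this E-box. The letters of a motif for glucocorticoid and androgen receptors (AGAACA, in 16.1% of windows), of a general nuclear receptor motif (AGGTCA, 14% of windows) and of a FoxO site (TGTTTAC, 3.17% of windows) are not in either window, which says nothing of sites elsewhere. Of the other windows, the one of Pdk3 has 1 CCAAT box, and a second start of Pdk1 has 2 matches to AGAACA. The other start of Pdk1 and a second start of Pdk2 have no match to any of these motifs.

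Array quality was similar over the 4 groups, with 11435 to 12212 probes detected per array (detection p at most 0.04) and mean signals of 733 to 1208. In sham C57.YA, mice 1 and 2 deviated from their group mean in the same direction over the 12764 tested probes (r = 0.25), as did mice 3 and 4 (r = 0.17), whereas every pair of arrays in the other 3 groups had a negative r (from -0.49 to -0.20). Comparisons with sham C57.YA were therefore refitted without mice 1 and 2 and without mice 3 and 4, and losses are given for the calls reported below. All 4 atrial genes tested (Myl4, Myl7, Sln and Mybphl) were higher in CX C57BL/6J ventricles, with a median log2 change of 3.03 against sham C57BL/6J and of 2.87 against CX C57.YA. Their summed signal lay between 3687 and 13646 in CX C57BL/6J mice, between 675 and 748 in sham C57BL/6J mice, between 692 and 762 in sham C57.YA mice and between 676 and 1120 in CX C57.YA mice. Myl7, Sln and Mybphl were detected on 0 of 4 arrays in each sham group and on 1, 1 and 0 of 4 in CX C57.YA. Outside CX C57BL/6J the sum is therefore Myl4 with mostly background, and the changes of Myl7, Sln and Mybphl are measured from near background. The summed signal of 5 ventricular myocyte genes differed little, from 216946 to 232072 over all mice. Of 7 markers of fat, a tissue rich in Pdk4, Adipoq, Plin1, Fabp4, Retn and Ucp1 were not detected in any group, and the 1 that was tested, Cidea, was detected on all 16 arrays and was lower after castration in both strains (-0.23 with adjusted p = 0.0922 in C57BL/6J and -0.35 with adjusted p = 0.00446 in C57.YA). Its call in C57BL/6J was lost with 9 of 16 single arrays left out (adjusted p up to 0.222) and in 6 of 11 other alternatives. Of 5 fibroblast genes, Lum alone was called after castration, as higher in C57BL/6J (0.76) and in C57.YA (1.01). The median change of the 5 was 0.00 in C57BL/6J and 0.15 in C57.YA. The summed fibroblast signal overlapped in C57BL/6J, with 30338 to 35013 in CX and 30101 to 35168 in sham mice. In C57.YA it was 34940 to 37082 in CX and 30876 to 31616 in sham mice. Of 5 skeletal muscle genes 2 were tested, and Myh4 and Tnnt3 were not detected in any group. Acta1, a skeletal muscle actin also made in the heart, was lower after castration in both strains (-1.55 and -1.11), and among sham mice it was 0.92 higher in C57BL/6J (adjusted p = 0.00419). Ckm, the other gene tested, was called neither after castration in a strain nor between sham groups. Its mean log2 signals were 13.99 in sham and 13.93 in CX C57BL/6J, and 14.06 and 14.14 in C57.YA. In CX mice Acta1 was 0.49 higher in C57BL/6J (adjusted p = 0.0518) and Ckm 0.21 lower (adjusted p = 0.0876). These calls were lost with 3 and 7 of 16 single arrays left out. Of endothelial, macrophage and red cell genes, 0 of 3, 0 of 2 and 0 of 3 were called after castration in C57BL/6J, and 0, 0 and 1 (Hbb-b2, 0.40) in C57.YA. The call of Hbb-b2 was lost without sham C57.YA mice 3 and 4 and with 11 of 16 single arrays left out (adjusted p up to 0.209). The part of the markers other than the atrial ones in the results that follow was not tested.

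Pdk4 had the largest change of the 5 genes after castration in C57BL/6J mice. In sham C57BL/6J mice 1 to 4 its log2 quantile-normalized signal was 11.27, 11.64, 11.43 and 11.94. In CX C57BL/6J mice it was 12.71, 12.42, 13.11 and 14.27. Every CX mouse thus lay above every sham mouse of this strain, and the means were 11.57 ± 0.29 and 13.13 ± 0.82 (SD, n = 4 each). Castration raised Pdk4 by 1.56 on the log2 scale in C57BL/6J (SE 0.27, 95% confidence interval 0.98 to 2.13, 2.94-fold, limma adjusted p = 0.00193). This was the one called member in that comparison, where a call is a limma adjusted p under 0.1, and 1 of 5 compares with 8.81% of all tested probes. It was also the one member whose sham and CX mice did not overlap, against 12.2% of tested probes.

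In C57.YA the Pdk4 signal was 12.57, 12.89, 12.64 and 12.57 in sham mice and 12.84, 12.14, 12.81 and 12.20 in CX mice. Both groups overlapped, with 2 CX mice inside the sham range and 2 below it, and their means were 12.67 ± 0.15 and 12.50 ± 0.38. The change after castration was -0.17 (SE 0.27, 95% confidence interval -0.74 to 0.40, adjusted p = 0.731), so that neither a small rise nor a fall was distinguishable from 0. The difference between both surgery effects was itself called, with an interaction of 1.73 (SE 0.39, 95% confidence interval 0.92 to 2.54, adjusted p = 0.0297), in 1 of 5 members against 2.88% of tested probes. Without sham C57.YA mice 1 and 2 the interaction was 1.66 and no longer called (adjusted p = 0.120), and with the unshrunken variance of the probe alone it missed the threshold as well (adjusted p = 0.128). Over 28 alternatives it was called in 26, with an adjusted p from 0.00294 to 0.128.

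Between the strains, Pdk4 was called in sham mice and not in CX mice. All 12 mice of the other groups were above every sham C57BL/6J mouse. Sham C57BL/6J hearts were 1.10 below sham C57.YA hearts on the log2 scale (log2 change of -1.10, SE 0.27, 2.14-fold, adjusted p = 0.0386). Leaving out sham C57BL/6J mouse 1 or 3, or sham C57.YA mice 3 and 4 together, moved its adjusted p past the threshold, to 0.112, 0.105 and 0.171, while the log2 difference stayed between -1.22 and -0.997 over 29 alternatives, with an adjusted p from 0.00112 to 0.171. In CX mice the order was turned, with C57BL/6J higher by 0.63 (SE 0.27), which was not called (adjusted p = 0.125), and both CX groups overlapped. Without CX C57BL/6J mouse 4, which had the highest signal of all 16, this difference was 0.25, the lowest over the arrays left out in turn.

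Ordered by its mean, Pdk4 was highest in CX C57BL/6J (13.13), followed by sham C57.YA (12.67), CX C57.YA (12.50) and sham C57BL/6J (11.57). The CX C57BL/6J and sham C57.YA mice overlapped, and so did sham and CX C57.YA mice, whereas sham C57BL/6J stood apart from all 3. On the linear scale the mean normalized signals were 10200 ± 6551, 6533 ± 705, 5932 ± 1538 and 3089 ± 631 in the same order (SD, n = 4 each). The spread was therefore widest in the group with the highest mean.

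**Figure D1:**
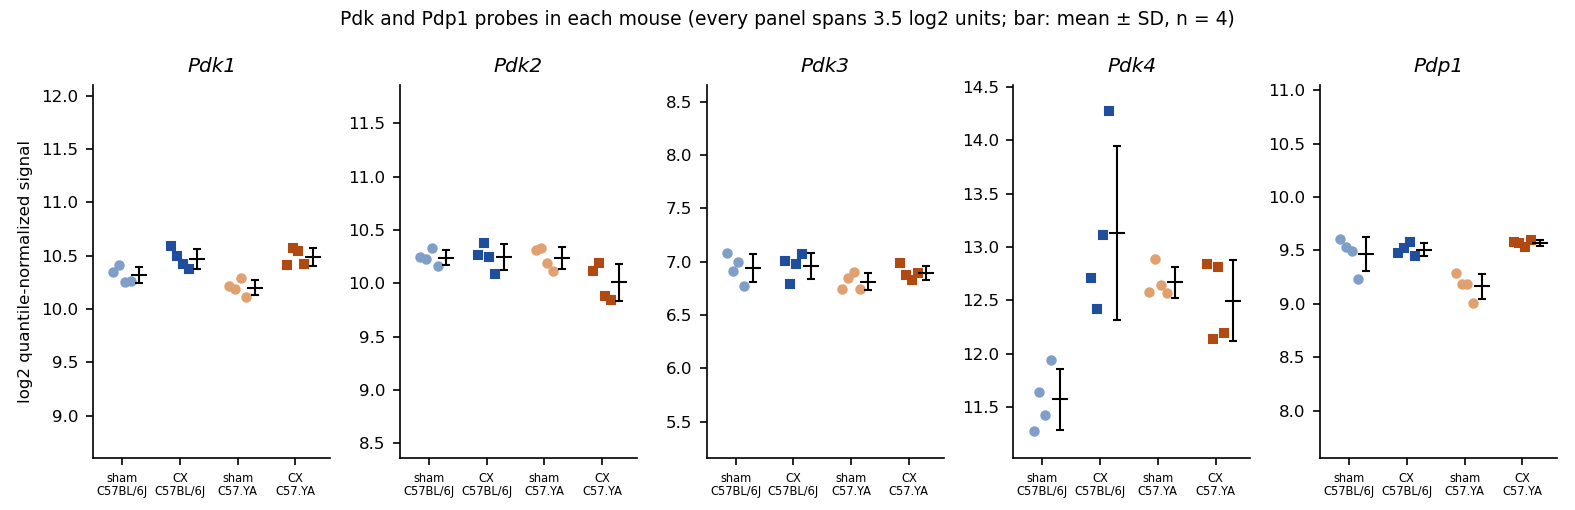
Log2 quantile-normalized signal of Pdk1, Pdk2, Pdk3, Pdk4 and Pdp1 in each of 16 mice by group; points are single mice, and the bar beside them is the mean with its SD (n = 4). All panels span the same number of log2 units, so that Pdk4, with group means from 11.57 to 13.13, shows its wider movement beside the other 4 genes.

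The same separation was present in the signals before normalization. The raw signals of Pdk4 were 2903, 3351, 3114 and 3185 in sham C57BL/6J mice and 8327, 5503, 11401 and 18028 in CX C57BL/6J mice. They were 6314, 5402, 5585 and 5430 in sham C57.YA mice and 6872, 4667, 8599 and 4027 in CX C57.YA mice. The lowest raw signal of a CX C57BL/6J mouse was thus above the highest of a sham C57BL/6J mouse before any scaling between arrays.

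The spread of Pdk4 over single mice was larger than its error between the beads of an array. That error does not cover differences between arrays in RNA preparation, labeling or hybridization, which were not measured. Each signal was the average of 27 to 40 beads, with a standard error of 2.43% to 7.84% of the signal, or a median of 0.051 on the log2 scale. The residual SD of Pdk4 between mice of a group was 0.48 on the log2 scale, 9.43 times that bead error, and 99.9% of the tested probes had a lower residual SD. Among the 644 tested probes of similar mean signal, within 0.5 log2 units, 99.8% had a lower one. The residual SD was 0.08 for Pdk1, 0.12 for Pdk2, 0.10 for Pdk3 and 0.10 for Pdp1, against a median of 0.12 over all tested probes. The widest spread was that of CX C57BL/6J, where mouse 4 (14.27) lay 1.16 above its neighbor while the other 3 mice spanned 0.69. This gap is 0.627 of the range of the group, which is below the critical value of Dixon's test for 4 values at the 95% level, and in none of the 20 combinations of member and group did an outermost mouse pass it. With 4 mice a group only an extreme gap can pass.

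The atrial genes were higher in the same group as Pdk4, and their r with Pdk4 over the 16 arrays was 0.40 to 0.44. Within groups the order of the mice differed. The CX C57BL/6J mouse with the highest summed atrial signal (13646) had the lowest Pdk4 of its group (12.42), and the mouse with the lowest atrial sum of that group (3687) had the highest Pdk4 (14.27). In CX C57.YA the mouse with the highest atrial sum (1120) also had the highest Pdk4 (12.84). In sham C57.YA, Pdk4 was at least 12.57 and the atrial sum at most 762 in every mouse. Outside CX C57BL/6J, Myl7, Sln and Mybphl were mostly undetected, so that the atrial sum and the mean used below are partly background there. With the mean log2 signal of the 4 atrial genes as a covariate, the surgery change of Pdk4 in C57BL/6J was 3.31 (adjusted p = 0.0458) and the interaction was 3.37 (adjusted p = 0.0608). These values are larger than those of the fit without it, and they rest on the spread of the covariate among mice of the same group, since its 4 highest values are those of the 4 CX C57BL/6J mice. Between groups, atrial signal and castration in C57BL/6J cannot be told apart.

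**Figure D2:**
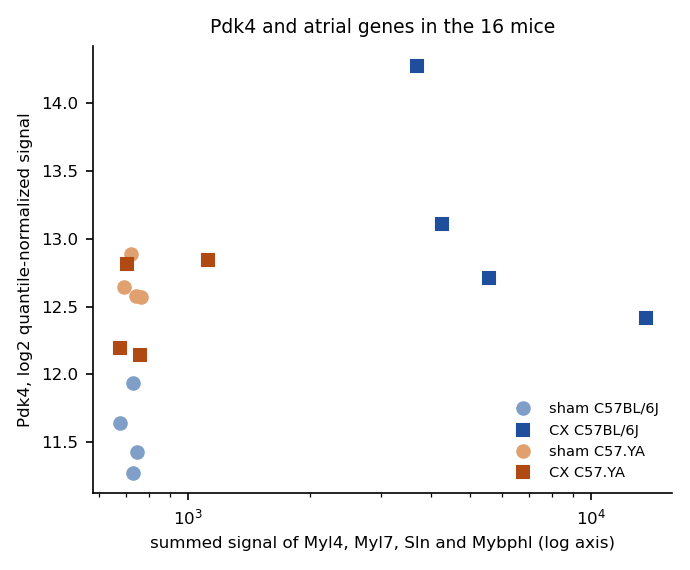
Log2 quantile-normalized signal of Pdk4 against the summed normalized signal of the atrial genes Myl4, Myl7, Sln and Mybphl on a log axis, 1 point per mouse, by group. The CX C57BL/6J mice have atrial sums of 3687 to 13646, and among them Pdk4 is lowest where the atrial sum is highest. In the other groups Myl7, Sln and Mybphl were mostly undetected.

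Pdk1, the kinase known to respond to hypoxia, rose after castration in C57.YA. Its log2 signal was 10.21, 10.18, 10.29 and 10.11 in sham and 10.41, 10.57, 10.55 and 10.42 in CX C57.YA mice. The groups did not overlap, and the change was 0.29 (SE 0.069, 1.22-fold, adjusted p = 0.00854). In C57BL/6J the values were 10.35, 10.41, 10.26 and 10.26 in sham and 10.59, 10.49, 10.42 and 10.37 in CX mice. Here the groups overlapped, and the change of 0.15 was not called (SE 0.069, adjusted p = 0.230). The effects of surgery in both strains differed by -0.14 (95% confidence interval -0.34 to 0.07, adjusted p = 0.537), so that a difference between strains was not shown.

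Pdk2, the widely expressed kinase, fell after castration in C57.YA. Sham mice had log2 signals of 10.31, 10.33, 10.19 and 10.11, and CX mice 10.12, 10.19, 9.89 and 9.85. Both groups overlapped, and the change was -0.23 (SE 0.086, 1.17-fold, adjusted p = 0.0859). In C57BL/6J it was 10.24, 10.23, 10.33 and 10.16 in sham and 10.27, 10.38, 10.25 and 10.08 in CX mice, with a change of 0.01 (95% confidence interval -0.17 to 0.19, adjusted p = 0.979). Among CX mice Pdk2 was 0.24 higher in C57BL/6J than in C57.YA (SE 0.086, 1.18-fold, adjusted p = 0.0656), the one member called for strain in CX, as 1 of 5 against 23.4% of tested probes. No member separated the strains in CX without overlap, against 21.3% of tested probes. With the mean of the atrial genes as a covariate this strain difference was -0.13 and not called (adjusted p = 0.863). Both calls of Pdk2 were close to the threshold. The fall in C57.YA was called in 16 of 29 alternatives, and it was -0.14 without sham C57.YA mice 1 and 2 (adjusted p = 0.454) and -0.13 with median scaling (adjusted p = 0.533). Leaving out sham C57BL/6J mouse 1 or 2, sham C57.YA mouse 1 or 2, or CX C57.YA mouse 3 or 4 ended this call, with values from -0.29 to -0.17 and adjusted p up to 0.240 over the arrays left out in turn. The strain difference in CX was not called without CX C57BL/6J mouse 1, 2 or 3 or CX C57.YA mouse 3 or 4, with adjusted p up to 0.197.

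Pdk3 stayed near the detection limit. It was detected on 6 of 16 arrays, namely 2 sham and 3 CX arrays of C57BL/6J and 0 sham and 1 CX array of C57.YA. Its log2 signals ran from 6.74 to 7.08 over all mice. No difference between groups was called, and the changes after castration were 0.02 in C57BL/6J (95% confidence interval -0.14 to 0.18) and 0.09 in C57.YA (95% confidence interval -0.08 to 0.25).

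Pdp1, a phosphatase that counters the kinases, rose after castration in C57.YA. It was 9.29, 9.19, 9.18 and 9.01 in sham and 9.58, 9.57, 9.53 and 9.59 in CX C57.YA mice. The lowest CX mouse was above the highest sham mouse, and the change was 0.40 (SE 0.078, 1.32-fold, adjusted p = 0.00185). In C57BL/6J it was 9.61, 9.53, 9.50 and 9.24 in sham and 9.48, 9.52, 9.58 and 9.45 in CX mice, which overlapped, with a change of 0.04 (95% confidence interval -0.12 to 0.21, adjusted p = 0.826). The interaction of -0.36 (SE 0.11) was not called (adjusted p = 0.117). Without sham C57BL/6J mouse 4, whose signal of 9.24 was the lowest of its group, it was -0.44 and called (adjusted p = 0.0297), and over all 16 arrays left out in turn its adjusted p lay between 0.0297 and 0.205.

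In C57.YA castration thus raised Pdk1 and Pdp1 and lowered Pdk2, making 3 of 5 members called against 19.7% of tested probes, although Pdk2 was not called without sham C57.YA mice 1 and 2. Of these, Pdk1 and Pdp1 had groups without overlap, against 19.5% of tested probes. In the sham mice 2 members were called for strain, against 4.29% of tested probes, as Pdp1 was 0.30 higher in C57BL/6J than in C57.YA (SE 0.078, 1.23-fold, adjusted p = 0.0457) and Pdk4 was lower. Only Pdk4 separated the sham groups without overlap, against 9.12% of tested probes. The call of Pdp1 was lost when sham C57BL/6J mouse 1, 2 or 3, or sham C57.YA mouse 3 or 4, was left out, with adjusted p up to 0.163, and without both sham C57.YA mice 3 and 4 (0.23, adjusted p = 0.351).

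Averaged over both strains, castration was followed by higher Pdk1 (0.22, adjusted p = 0.00395), Pdk4 (0.69, adjusted p = 0.0186) and Pdp1 (0.22, adjusted p = 0.00870), or 3 of 5 members against 23.2% of tested probes. For Pdk4 this mean joins a change of 1.56 with one of -0.17. Averaged over surgery, 0 of 5 members were called for strain, against 25.4% of tested probes, and 1 member, Pdp1, had an unadjusted p under 0.05 (0.0414).

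**Figure D3:**
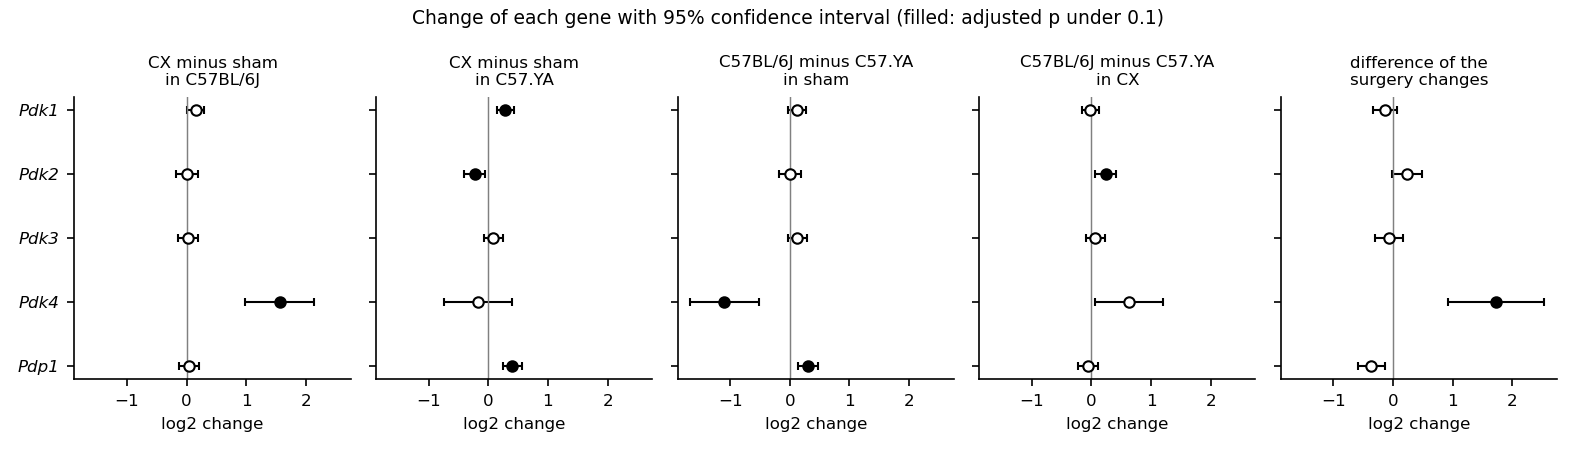
Log2 change of each of the 5 genes for CX against sham mice of a strain, for C57BL/6J against C57.YA mice of a surgery group, and for the interaction; points are limma estimates over 16 arrays, bars are 95% confidence intervals, and filled points have an adjusted p under 0.1. Pdk4 has the widest intervals and changes of 1.56 in C57BL/6J and -0.17 in C57.YA after castration.

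Pdk4 also shifted relative to its paralogs within single arrays. Within each mouse, the log2 signal of Pdk4 minus the mean of Pdk1 and Pdk2 was 0.98, 1.33, 1.14 and 1.72 in sham C57BL/6J and 2.28, 1.98, 2.77 and 4.04 in CX C57BL/6J mice. It was 2.31, 2.63, 2.40 and 2.45 in sham C57.YA and 2.58, 1.76, 2.60 and 2.06 in CX C57.YA mice. Only shifts of this difference between groups can be read, since signals of different probes are not on a common scale. Relative to this mean Pdk4 shifted by 1.48 after castration in C57BL/6J and by -0.20 in C57.YA, beside a pooled SD within groups of 0.53. The shift in C57BL/6J was 1.40 against Pdk1 and 1.55 against Pdk2, and in C57.YA it was -0.46 against Pdk1 and 0.06 against Pdk2, which differ in sign. Against Pdk3 the shifts were 1.54 and -0.26, but its probe was detected on 6 of 16 arrays, so that these are mostly differences from background. No test was made on these differences, because the genes were chosen with results of these arrays known.

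**Figure D4:**
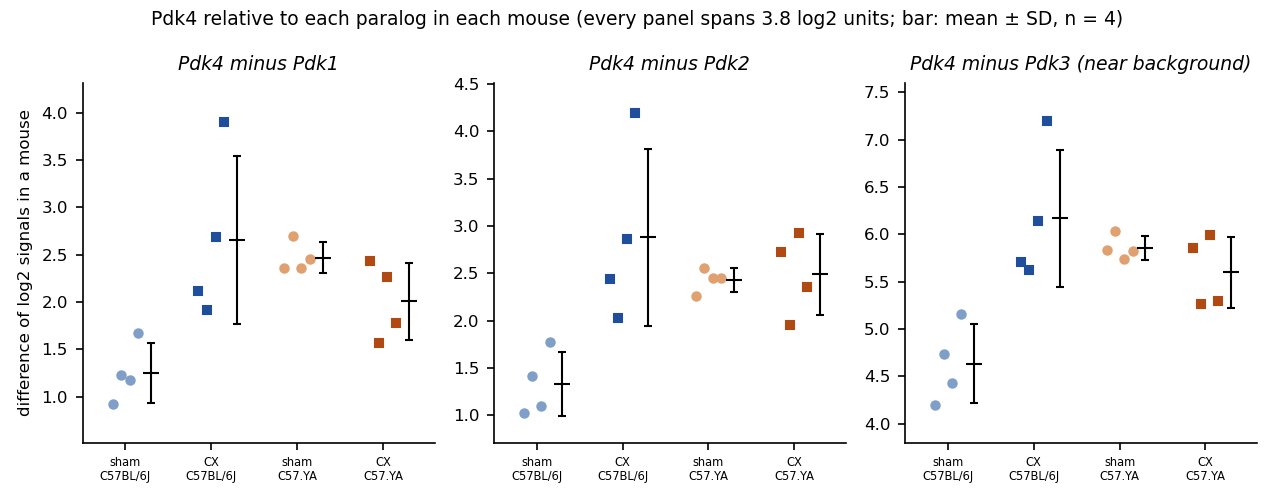
Difference between the log2 signal of Pdk4 and that of Pdk1, Pdk2 or Pdk3 within each of 16 mice, by group; points are single mice and the bar is the mean with its SD (n = 4). The CX C57BL/6J mice lie above the sham C57BL/6J mice, with group shifts of 1.40 against Pdk1 and 1.55 against Pdk2; the third panel is mostly a difference from background, as Pdk3 was detected on 6 of 16 arrays.

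Over the 16 arrays Pearson's r of Pdk4 was 0.07 with Pdk1, -0.21 with Pdk2, 0.08 with Pdk3 and -0.16 with Pdp1. Pdk1 and Pdp1 had an r of 0.76, which fell to 0.31 for the deviations from the group means. These values describe arrays that share their normalization and their groups.

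Pdp2, the other phosphatase of the complex, had the second lowest r with Pdk4 of 8830 other genes (r = -0.79 over 16 arrays, and -0.48 for the deviations from the group means). Its log2 signal was 12.59, 12.41, 12.65 and 12.53 in sham and 12.25, 12.32, 12.28 and 12.10 in CX C57BL/6J mice. The groups did not overlap, and Pdp2 fell by 0.31 after castration in C57BL/6J (SE 0.079, adjusted p = 0.0273), where Pdk4 rose. In C57.YA it was 12.27, 12.11, 12.13 and 12.40 in sham and 12.32, 12.21, 12.34 and 12.42 in CX mice, which overlapped, with a change of 0.10 (adjusted p = 0.462). Among sham mice Pdp2 was 0.32 higher in C57BL/6J (SE 0.079, adjusted p = 0.0376), where Pdk4 was lower. Its interaction of -0.41 was called (SE 0.11, adjusted p = 0.0790), but in only 10 of 28 alternatives, with an adjusted p from 0.0274 to 0.381, and not without sham C57.YA mice 1 and 2 (-0.37, adjusted p = 0.246). The fall of Pdp2 in C57BL/6J was called in 27 of 29 alternatives, but not with median scaling or the atrial covariate (adjusted p up to 0.347). Its sham difference was called in 25 of 29 (adjusted p up to 0.127). Pdk4 and Pdp2 thus moved in opposite directions in surgery in C57BL/6J and strain in sham, which share the sham C57BL/6J mice. Since Pdp2 was ranked by its r with Pdk4 over the same arrays, these opposite directions are no separate result.

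**Figure D5:**
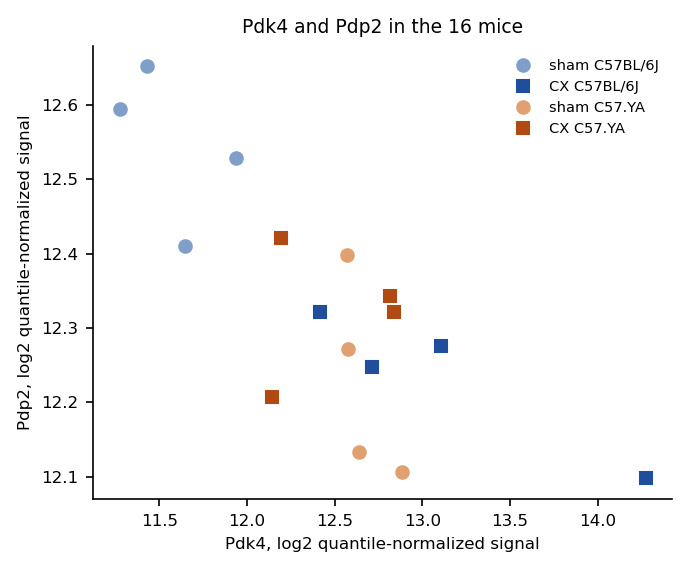
Log2 quantile-normalized signal of Pdp2 against that of Pdk4, 1 point per mouse, by group. The sham C57BL/6J mice lie at low Pdk4 (11.27 to 11.94) and high Pdp2 (12.41 to 12.65), and the mouse with the highest Pdk4 (14.27) has the lowest Pdp2 (12.10).

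The genes with the highest r to Pdk4 over the 16 arrays were Tspan14 (0.86), Tmem237 (0.82), Tlcd3a (0.79), Nxn (0.79) and Tubb2b (0.79). Of these, Nxn, which encodes nucleoredoxin, rose after castration in C57BL/6J by 0.44 (adjusted p = 0.000196) and fell by 0.20 in C57.YA (adjusted p = 0.0394), with an interaction of 0.63 (adjusted p = 0.000516). Tubb2b, a beta-tubulin, had the same signs, with 0.53 in C57BL/6J (adjusted p = 0.00180), -0.24 in C57.YA (adjusted p = 0.0942) and an interaction of 0.77 (adjusted p = 0.00395). Without sham C57.YA mice 1 and 2 the changes in C57.YA were not called, at -0.15 for Nxn (adjusted p = 0.250) and -0.14 for Tubb2b (adjusted p = 0.480), whereas both interactions were. The lowest r besides Pdp2 were those of Jtb (-0.83), Daglb (-0.78), Rsad1 (-0.78) and Rnf166 (-0.77). When the group means were removed, the highest r were those of Pmm2 (0.93), Sfmbt1 (0.91), Pi16 (0.89), Pdlim7 (0.89) and Entpd2 (0.86), none of which was among the genes with the highest r of the levels. Pmm2, a phosphomannomutase, fell after castration by 0.35 in C57BL/6J (adjusted p = 0.0116) and by 0.32 in C57.YA (adjusted p = 0.0108), the latter not without sham C57.YA mice 1 and 2 (-0.27, adjusted p = 0.110). Its r with Pdk4 was thus high between mice of a group, while the surgery change in C57BL/6J had the other sign.

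Of 7 genes listed for the subunits and partners of the enzyme complex, 6 were tested. Pdp2 was the only one called after castration in C57BL/6J, or 16.7% of the list against 8.81% of all tested probes, and the only one called in sham mice (16.7% against 4.29%). Its sham call was lost with 3 of 16 single arrays left out, with adjusted p up to 0.127. In C57.YA 2 were called (33.3% against 19.7%), as Dlat, the acetyltransferase subunit, fell by 0.21 (adjusted p = 0.0490) and Pdha1, the subunit that the kinases phosphorylate, fell by 0.20 (adjusted p = 0.0559), and neither was called without sham C57.YA mice 1 and 2 (adjusted p of 0.168 and 0.274). With single arrays left out Dlat lost its call for 2 and Pdha1 for 4 of 16. Pdhb, the beta subunit, was 0.25 higher in CX C57BL/6J than in CX C57.YA (adjusted p = 0.0247). The median change of the 6 was -0.03 in C57BL/6J and 0.02 in C57.YA, near the median of 0.00 over all tested probes in each.

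Among genes of glucose and pyruvate supply, 8 of 13 were tested. After castration 0 rose and 2 fell in C57BL/6J, and 2 rose and 1 fell in C57.YA, which is 25% and 37.5% of the list against 8.81% and 19.7% of tested probes. In C57.YA 2 of these 3 calls, both rises (Pfkfb2 and Slc2a4), were lost without sham C57.YA mice 1 and 2. Hk1, a hexokinase, fell in both strains, by 0.50 in C57BL/6J (adjusted p = 0.00434) and by 0.52 in C57.YA (adjusted p = 0.00137). Pfkfb2, the cardiac enzyme that makes the glycolysis activator fructose 2,6-bisphosphate, fell by 0.36 in C57BL/6J (adjusted p = 0.0901) and rose by 0.43 in C57.YA (adjusted p = 0.0241), with an interaction of -0.79 (adjusted p = 0.0241). Among sham mice it was 0.59 higher in C57BL/6J (adjusted p = 0.0124). The fall in C57BL/6J was not called with 8 of 16 single arrays left out (adjusted p up to 0.245) and in 8 of 11 other alternatives. After castration in C57BL/6J and between the sham groups its sign was opposite to that of Pdk4, and its r with Pdk4 was -0.67 over 16 arrays. The rise in C57.YA was not called without sham C57.YA mice 1 and 2 (0.40, adjusted p = 0.121).

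Of 26 lipid genes that respond to PPAR, as Pdk4 does, 19 were tested. In C57BL/6J, 1 rose and 0 fell after castration, the 1 being Ucp3, a mitochondrial uncoupling protein (0.68, adjusted p = 0.0433), a call lost with 4 of 16 single arrays left out (adjusted p up to 0.138). This is 5.26% of the list against 8.81% of tested probes. In C57.YA 0 rose and 4 fell (21.1% against 19.7%), and of these Acadvl and Cpt1b were not called without sham C57.YA mice 1 and 2 (adjusted p of 0.395 and 0.192). The larger falls were those of Acot1, an acyl-CoA thioesterase (-0.76, adjusted p = 9.2e-05), and Plin5, which coats lipid droplets (-0.65, adjusted p = 1.73e-05). Plin5 was the one gene of this list with a called interaction (0.62, adjusted p = 0.00663), and in sham mice it was 0.35 lower in C57BL/6J (adjusted p = 0.0203). In those sham mice 3 genes of the list were called (15.8% against 4.29% of tested probes), all lower in C57BL/6J as Pdk4 was: Acot1 (-0.42, adjusted p = 0.0448), Plin5, and Mlycd, malonyl-CoA decarboxylase (-0.32, adjusted p = 0.0103). Acot1 missed the threshold there without sham C57.YA mice 3 and 4 (-0.43, adjusted p = 0.198) and with 4 of 16 single arrays left out (adjusted p up to 0.134). In CX mice 3 were called (15.8% against 23.4%), all higher in C57BL/6J, with Plin2, another lipid droplet protein, at 0.40 (adjusted p = 0.0144). The median change of the list after castration was 0.03 in C57BL/6J and -0.12 in C57.YA.

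Of 13 transcription factors and coactivators known to act on Pdk4, 9 were tested, and limma called 0 of them for the interaction and 0 for strain in sham mice, with 2 and 2 at an unadjusted p under 0.05. Esrra, estrogen-related receptor alpha, fell by 0.24 in C57BL/6J (adjusted p = 0.0565) and by 0.18 in C57.YA after castration (adjusted p = 0.0946). The call in C57BL/6J was lost with 4 of 16 single arrays left out (adjusted p up to 0.174), and that in C57.YA with 10 of 16 (adjusted p up to 0.246), as well as without sham C57.YA mice 1 and 2 (adjusted p = 0.157) or 3 and 4 (adjusted p = 0.255). Nr3c1, the glucocorticoid receptor, rose by 0.39 in C57.YA (adjusted p = 0.00916). The called share was 11.1% in C57BL/6J and 22.2% in C57.YA, against 8.81% and 19.7% of tested probes. In CX mice 3 (33.3% against 23.4%) had a lower signal in C57BL/6J, namely Ppara (-0.73, adjusted p = 0.00657), Rxra (-0.37, adjusted p = 0.0380) and Nr3c1 (-0.36, adjusted p = 0.0157), of which Rxra was not called with 3 of 16 single arrays left out (adjusted p up to 0.102). Rxra lay near the detection limit, with detection on 2 of 4 arrays in CX C57BL/6J (mean 6.95) and 4 of 4 in CX C57.YA (mean 7.32). The direction of Ppara, Rxra and Nr3c1 was opposite to that of Pdk4, which was higher in CX C57BL/6J by 0.63 but not called.

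The last of the 5 gene lists holds genes induced by glucocorticoids and FoxO factors. It was chosen with earlier results of these arrays known, and the paper had reported Cdkn1a and Per1 among its interaction genes. The called shares below therefore do not test the list. Of 15 genes, 14 were tested. After castration 1 rose and 2 fell in C57BL/6J, and 7 rose and 5 fell in C57.YA, or 21.4% and 85.7% of the list against 8.81% and 19.7% of tested probes. In C57.YA 6 of the 12 calls depended on a pair of sham mice, as Klf9, Per1 and Tsc22d3 lost theirs without sham C57.YA mice 1 and 2 and Ddit4, Depp1 and Irs2 without mice 3 and 4. A positive interaction was called for 4 and a negative one for 2 (42.9% against 2.88%), of which that of Sesn1 was lost without mice 1 and 2. The interaction of Sesn1 also lost its call with 10 of 16 single arrays left out (adjusted p up to 0.174) and in 7 of 10 other alternatives. That of Ddit4 was lost with 7 of 16 (adjusted p up to 0.148) and in 4 of 10. Cdkn1a, the cell cycle inhibitor p21, fell by 2.46 in C57.YA (adjusted p = 1.02e-07), and was not called in C57BL/6J (-0.30, adjusted p = 0.372), with an interaction of 2.16 (adjusted p = 9.48e-05). Fkbp5, a co-chaperone of the glucocorticoid receptor, fell by 1.33 in C57.YA (adjusted p = 2.27e-05) and by 0.60 in C57BL/6J (adjusted p = 0.0397), the latter not without sham C57BL/6J mouse 4 (adjusted p = 0.115). Per1, a clock gene that glucocorticoids also induce, rose by 0.94 in C57.YA (adjusted p = 0.00563), but not without sham C57.YA mice 1 and 2 (0.48, adjusted p = 0.141). Depp1, a FoxO target, rose by 0.71 in C57BL/6J (adjusted p = 0.0297), but not without sham C57BL/6J mouse 3 (0.52, adjusted p = 0.106). Fbxo32, a muscle ubiquitin ligase, fell there by 0.39 (adjusted p = 0.0133) and rose by 0.76 in C57.YA (adjusted p = 1.45e-05). In sham mice the strain comparison called 5 of the 14 lower and 1 higher in C57BL/6J (42.9% against 4.29%), of which Fkbp5 was not called without sham C57.YA mice 3 and 4. Cdkn1a (-1.72, adjusted p = 1.09e-05), Ddit4 (-1.50, adjusted p = 0.00107) and Depp1 (-1.28, adjusted p = 0.000474) were lower there, as Pdk4 was.

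Depp1 had the sign of Pdk4 in both comparisons that share the sham C57BL/6J mice. Its log2 signal was 10.61, 10.02, 9.51 and 10.12 in sham and 11.04, 10.94, 10.69 and 10.44 in CX C57BL/6J mice, which overlapped. It was 11.10, 11.08, 11.52 and 11.69 in sham and 10.98, 10.73, 10.59 and 10.77 in CX C57.YA mice, which did not. Unlike Pdk4 it fell in C57.YA after castration, by 0.58 (adjusted p = 0.0419), although not without sham C57.YA mice 3 and 4 (-0.33, adjusted p = 0.303). Its interaction was 1.29 (adjusted p = 0.0144). Over the 16 arrays its r with Pdk4 was 0.38, and the r of all 14 genes of the list ran from -0.37 to 0.38 with a median of 0.05.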

How the data were processed

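The authors hybridized RNA of each left ventricle to an Illumina MouseRef-8 v2.0 array and deposited unnormalized BeadStudio signal intensities, with a detection p-value, a bead standard error and a bead number per probe. They also deposited log2 values after quantile normalization, a table whose probe names could not be matched to the signals. It served as an alternative, after each probe had been paired with the line nearest to its normalized values (largest difference 5.43e-06). By this pairing it repeats the main fit, so that it is no independent check among the alternatives. The 4 mice per group are separate animals, and the number of arrays limits the precision.

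Here the log2 of each intensity was quantile-normalized across the 16 arrays, with no background subtracted. Tests were run on probes with a detection p of 0.04 or less on 2 or more arrays of any group, which kept 12764 of 25697 probes, 23978 of which have a gene symbol through the platform annotation. In R 4.3.3, limma 3.58.1 with statmod 1.5.0 fitted 1 mean per group to the 16 arrays and shrank the variances by eBayes. The contrasts were adjusted by the Benjamini-Hochberg method over all tested probes, and an adjusted p under 0.1 was a call. The methods of the study use a shrunken variance with permutations, for which limma was the nearest standard tool. The script was tested on simulated data.

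The members and lists were chosen with earlier results of these data known, so that their called shares are descriptions and not tests. Genes named outside the members are the up to 3 with the largest called change per list and contrast, and those ranked highest and lowest by Pearson's r with Pdk4. A few genes of the lists were named besides these after their values were seen, as were the genes given without 2 sham C57.YA arrays. A gene outside the members is given by its tested probe of highest mean signal. The arrays lay on 2 BeadChips, and which array lay on which is not given in the sources used here, so that the part of the BeadChip was not tested. Alternatives were neqc background correction (offset 16), median scaling, the authors' log2 table, testing every probe, testing only probes with a detection p up to 0.01 in all 4 mice of some group, the unshrunken variance, weights per array, a replicate block, an adjusted p under 0.05, the mean of 4 atrial genes as a covariate, the compared groups alone, each array left out in turn and, chosen after seeing the data, 2 sham C57.YA arrays left out together.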

Additional observations from a re-analysis of the deposited data

Results flagged for a closer look

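The effect of castration on Pdk4 differed between both strains in the main fit, where the interaction was called. Since Pdk4 was chosen with earlier results of these data known, its adjusted p describes these arrays and is no independent support. The interaction was 1.73 on the log2 scale (limma adjusted p = 0.0297), with a change of 1.56 in C57BL/6J, where all 4 CX mice lay above all 4 sham mice, and of -0.17 in C57.YA, where the groups overlapped.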

How the results depend on the processing

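The rise of Pdk4 after castration in C57BL/6J was called under all 29 alternatives, with values from 1.17 to 3.31, and its change in C57.YA under none of 29. The authors' table, counted among these, repeats the main fit. The strain difference of Pdk4 in sham mice lost its call with an ordinary variance (-1.10, adjusted p = 0.139) and without sham C57.YA mice 3 and 4 (-1.16, adjusted p = 0.171), and it lay between -1.22 and -0.997 with single arrays left out, where sham C57BL/6J mouse 1 or 3 ended the call. Its strain difference in CX mice became a call with median scaling (0.71, adjusted p = 0.0354) and with array weights (0.64, adjusted p = 0.0707), and lay between 0.25 and 0.87 with single arrays left out, where it was called without CX C57BL/6J mouse 1 or 2. The interaction of Pdk4 lost its call with an ordinary variance (1.73, adjusted p = 0.128) and without sham C57.YA mice 1 and 2 (1.66, adjusted p = 0.120). Over the 793 values of the other members, 1 called value changed sign, the strain difference of Pdk2 in CX with the atrial covariate (-0.13), 30 calls were lost and 12 gained, and 750 stayed on their side of the threshold, 20 of which were uncalled values that changed sign. The averaged strain difference of Pdk4 became a call without CX C57BL/6J mouse 4 (-0.42, adjusted p = 0.0298). With the atrial covariate the rises of Pdk1 and Pdp1 averaged over strains, 0.18 and 0.22, were not called (adjusted p of 0.400 and 0.364). The causes of these shifts were not tested.

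Replicate numbers are shared between groups. Arrays of the same number had an r of their deviations from -0.09 to 0.20 over 24 pairs. Their median of 0.09 was above the median of -0.02 over 72 other pairs. Whether arrays of a number shared a step of processing was not tested. A replicate block gave 1319 called probes for surgery in C57BL/6J, 694 for strain in sham and 426 for the interaction. The main fit gave 1124, 548 and 368. With the replicate block, Pdk4 kept its calls (1.56 in C57BL/6J with adjusted p = 0.00297, -1.10 in sham with adjusted p = 0.0398, 1.73 for the interaction with adjusted p = 0.0312). The block added the interaction of Pdp1 (-0.36, adjusted p = 0.0837) and the averaged strain difference of Pdk2 (0.12, adjusted p = 0.0916).

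Of the 64 called results of the gene lists, 29 were lost with the atrial covariate, 21 with median scaling, 12 without sham C57.YA mice 1 and 2, 7 without mice 3 and 4, and 3 to 10 with single arrays left out. Counts of called probes moved more. Median scaling gave 563 for surgery in C57BL/6J, 365 for strain in sham and 152 for the interaction, in place of 1124, 548 and 368, and an adjusted p under 0.05 gave 675, 305 and 184. The sham groups alone gave 321 for strain in sham, and array weights 579 for the interaction. With the atrial covariate, limma called 80 probes for surgery in C57BL/6J, 53 for the interaction, 691 for averaged surgery, 70 for averaged strain and 0 for strain in CX, where 1397 had an unadjusted p under 0.05. Leaving out single arrays gave 694 to 1243 for surgery in C57BL/6J, 275 to 880 for strain in sham and 200 to 654 for the interaction. Without sham C57.YA mice 1 and 2 the counts were 1510 for surgery in C57.YA, 2042 for strain in sham and 140 for the interaction, and without mice 3 and 4 they were 179 for strain in sham, 1703 for the interaction and 1467 for averaged strain. Pdk3, detected on 6 of 16 arrays, is limited by signal over background.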
